A study of Caenorhabditis elegans with 2 samples.

Results

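The 3000 regions described here are candidate binding regions of SNAI-1 whose summits lay in a coding exon (CDS) or a 3′ UTR of a protein-coding gene. They came from chromatin immunoprecipitation followed by sequencing (ChIP-seq) of late Caenorhabditis elegans embryos, in 1 group of 2 biological replicates with no second condition. The embryos were of strain OP698, unc-119(tm4063) III with the integrated transgene wgIs698, which makes K02D7.2 (SNAI-1) fused to GFP, and both replicates carried both alleles. Whole mixed-sex embryos were collected 5 hours after egg bleaching, so that all tissues were sampled together, and chromatin was recovered with an antibody against GFP. The labels do not say which promoter drives the transgene.

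The members were chosen by rank. Of the 30000 candidate regions that the authors listed for both replicates pooled, on the genome build ce11, 6533 had their summit in a CDS or 3′ UTR. Of these, 4374 also lay outside all promoter windows (1000 bp upstream to 200 bp downstream of a protein-coding start), more than 500 bp from tRNA, snoRNA and snRNA genes, and outside a stretch of 1.75 Mb on the right arm of chromosome III that is dense in peaks. The 3000 with the highest signal became the members, which is 68.6% of the eligible regions and 10% of the pooled list. The other 1374 eligible regions are called lower-ranked below. A CDS summit was found in 2419 members and a 3′ UTR summit in 581. Every member was 456 bp wide. Signal is the value that the authors' caller gave to a region. Its scale is unknown, so it is used here for ranks within a list.

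The word strong holds for these regions only within their own class. Their signal had a median of 48.7, with quartiles of 43.1 and 57.4, beside a median of 44.97 over the whole pooled list. Only 5 members (0.167%) were in the authors' list of reproducible peaks, which passed a filter on the irreproducible discovery rate (IDR), against 1.65% of all pooled regions. A deposited q-value below 0.05 was found for 14 members (0.467%), against 2.65% of all pooled regions. The median −log10 q of the members was 0.111, where 1.30 corresponds to a q of 0.05. Most members were therefore candidate regions that the authors' caller listed without calling them significant. The rule used the signal, so these values describe the choice and are no result about the members.

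Snail proteins are zinc-finger factors that bind E-boxes, short sites of the form CANNTG, and the textbook Snail site is CAGGTG. They are known mostly as repressors, with roles in epithelial cells, nervous system and cell death. In worms, regulatory sites are usually sought in the short intergenic sequence upstream of genes, while coding exons carry codons and 3′ UTRs carry sites for RNA-binding proteins and microRNAs.

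Sequences are shown for 6 of the strongest coding members, to give the letters behind the values below. The coding members of asd-2, nol-14 and C17F3.3, which rank among them, are not shown. Each sequence is given for 30 bases, 5′ to 3′ on the strand of the gene, from the RefSeq sequence of the assembly WBcel235 (ce11), with the summit base as the capital letter.
cut-2: gccgctgccccaatCgctgccccagcagga
dos-3: tgctaacaaatactAttatcacccggaatc
Y47D7A.13: ctggaccaattggaGgaggattcggtggag
col-101: gctggaccaccaggAccagctggaccagcc
pks-1: gcggacattaaattTagcgcagggaggacg
pck-1: gtccaaaacctggaTggtcaccaaggacaa
In windows reaching 50 bp to each side of these summits, GC made up 69.3% at cut-2, 63.4% at col-101, 62.4% at Y47D7A.13 and 60.4% at pck-1. The windows at dos-3 and pks-1 had 49.5% and 48.5%. Those not shown had 50.5% at asd-2, 53.5% at nol-14 and 36.6% at C17F3.3. The strongest coding summits thus ranged widely in base composition.

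The strongest member lay in exon 2 of 2 of cut-2, at chrV:13415294-13415749, with a signal of 172.9. CUT-2 is a cuticlin, an insoluble protein of the worm cuticle. The region stood at rank 202 of the pooled list, at rank 229 in replicate 1 and at rank 203 in replicate 2. Another member in cut-2 had a signal of 86.81, with its summit at position 13415744, so the regions of this gene overlapped. A further 4 members had passed the authors' IDR filter. They were in the 3′ UTR of pals-26 (chrIII:4378659-4379114, signal 165.1), in the last exon of dos-3 (chrIII:835750-836205, 159.5), in the 3′ UTR of zig-11 (chrV:1875588-1876043, 127.3) and in exon 7 of 8 of asd-2 (chrI:6878819-6879274, 116.8). PALS-26 belongs to the pals family, of which some members act in the response to intracellular pathogens. DOS-3 is a small protein related to Notch co-ligands, ZIG-11 an immunoglobulin-domain protein, and ASD-2 an RNA-binding regulator of splicing. The summits of the pals-26 and zig-11 regions lay 20 bp and 338 bp before the annotated gene end.

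Behind these came members that missed the IDR list. A region in the single exon of Y47D7A.13 (chrV:4435402-4435857) had a signal of 114.5, just under the lowest IDR peak at 114.7. The 3′ UTR of egl-13, a Sox-family transcription factor, had 110.3, and exon 3 of 3 of col-101, a cuticle collagen, had 105.6. The 3′ UTRs of F44E2.4 and of the nuclear hormone receptor nhr-119 had 105.4 and 104.7. The region in nol-14, for a nucleolar protein, had 102.6 and that in C17F3.3 had 100.1, with the 3′ UTR of the transmembrane collagen col-99 between them. Below 100 stood pks-1 (polyketide synthase, 99.23), rga-9 (98.16) and tra-1 (the Gli-family regulator of sexual fate, 97.27). The remaining regions among the 20 strongest were in pck-1 (phosphoenolpyruvate carboxykinase, 96.48), glb-6 (a globin, 96.39), his-24 (a linker histone, 95.53) and hpo-36 (95.16). The functions named here were varied, with cuticle proteins at cut-2 and col-101 and regulators of transcription at egl-13, nhr-119 and tra-1. Of the 20 regions, 8 had their summit in a 3′ UTR.

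**Figure D1:**
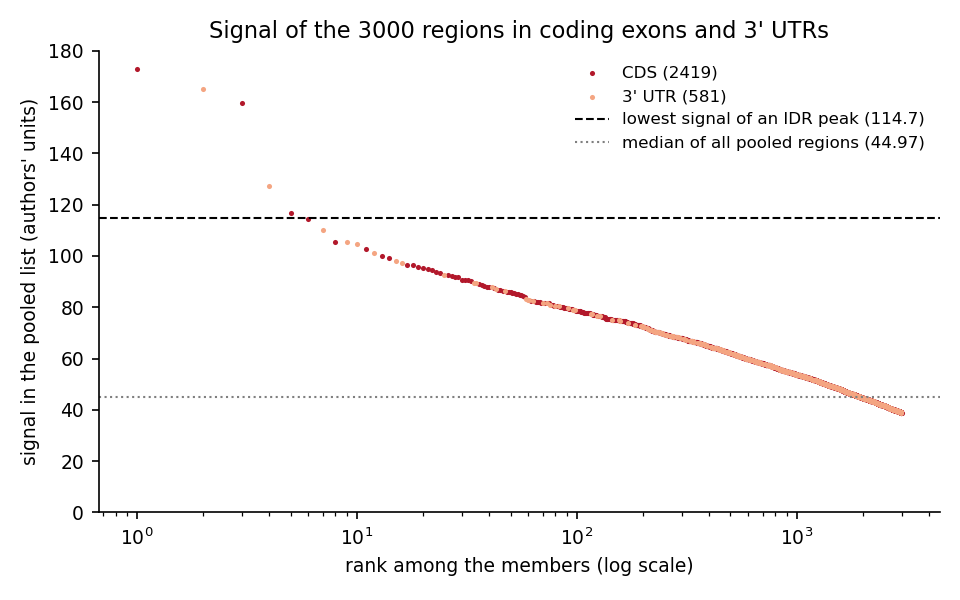
Signal of each of the 3000 members in the pooled list (y axis, authors' units) against its rank among the members (x axis, log scale), with CDS summits in dark red and 3′ UTR summits in light red. The 5 strongest members lie above the dashed line at 114.7, the lowest signal of an IDR peak, and the curve ends at 38.9, below the dotted line at 44.97, the median of all pooled regions.

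The curve of signal by rank had no step at the threshold. The last 3 members, in dhhc-2, hsp-90 and mef-2, had signals of 38.94, 38.93 and 38.93. The next 3 regions, in F55D12.2, Y69H2.15 and jmjc-1, had 38.93, 38.93 and 38.92. Membership near the threshold therefore says nothing about a gene.

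The members were first compared between the replicates. A candidate region of replicate 1 overlapped 80.4% of members by at least 1 bp, and a candidate of replicate 2 overlapped 76.9%. Both did so for 1745 members (58.2%), only replicate 1 for 666, only replicate 2 for 562 and neither for 27. Since the pooled list was made from both replicates, this overlap is not independent of the choice. It fell with rank, from all of the 100 strongest members to 93.5% of the next 200, 80.7% of the 700 after them, 54.7% of ranks 1001 to 2000 and 34.6% of ranks 2001 to 3000. The lower-ranked regions had 21.7%. Neighbouring members could share a replicate region: 300 members overlapped another member, and the 2411 members listed in replicate 1 met 2273 different regions there.

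**Figure D2:**
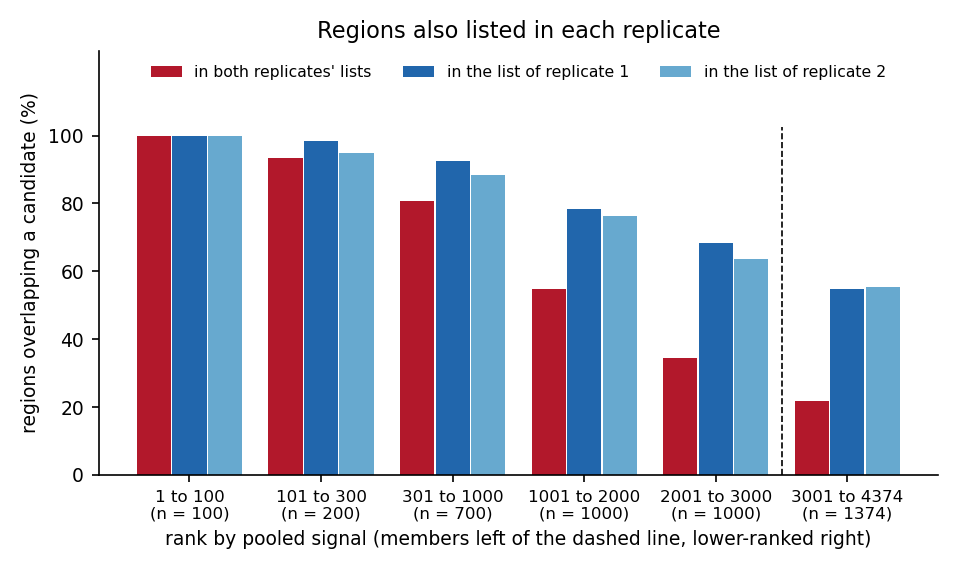
Share of regions (y axis, percent) that overlap a candidate region of both replicates (red), of replicate 1 (dark blue) or of replicate 2 (light blue), for 6 ranges of rank by pooled signal (x axis, with the number of regions). The share in both lists falls from all of the 100 strongest members to 34.6% of the last 1000, and it is 21.7% among the lower-ranked regions right of the dashed line.

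Within the members the signals of the replicates followed each other weakly. Across the 1745 members listed in both, the signals of the replicates had a Spearman correlation of 0.13, a description across regions that share the libraries and the choice by their pooled value. Such a choice can itself lower the correlation, and its part was not tested. A replicate's signal is that of its strongest overlapping candidate, and 292 members overlapped a stronger pooled region. In egl-13 the signal was 94.64 in replicate 1 (rank 194 of its list) and 19.44 in replicate 2 (rank 25040). In pks-1 it was 27.73 in replicate 1 (rank 14483) and 75.42 in replicate 2 (rank 240). These regions rested mainly on 1 replicate each. At dos-3 the ranks were 180 and 336, and at pals-26 they were 188 and 297, so that these regions stood high in both lists.

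When the same rule was run on each replicate's own list, the results overlapped in part. Of the 3000 regions chosen in replicate 1, 26.5% overlapped one of the 3000 chosen in replicate 2 (exact 95% binomial interval 24.9 to 28.1%), and the share was 26.7% in the other direction. Any candidate region of replicate 2, whatever its rank or place, overlapped 48.0% of the 3000 chosen in replicate 1 (46.2 to 49.8%). The same was true of 36.2% of the lower-ranked regions of replicate 1 (33.9 to 38.6%). The eligible sequence is made up of all CDS and 3′ UTR positions that the rule allows. Of windows as wide as a region, placed every 50 bp along it, 19.1% overlapped a candidate of replicate 2. Chosen in replicate 2 and looked up in replicate 1, the shares were 47.5% for the 3000, 35.7% for the lower-ranked regions and 19.1% for the windows. Counted over candidates of any rank, each replicate thus held more of the regions chosen in the other than of the sequence at large. It missed about 1 in 2 of them. No share of windows was computed for the 3000 chosen regions alone, so 26.5% and 26.7% have no such value beside them. The intervals cover counting error only and treat regions as independent, which regions of 1 gene are not.

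The class of exon went with this replicate overlap. Among the 3000 regions chosen in replicate 1, 57.9% of those in 3′ UTRs (53.6 to 62.1%) overlapped a candidate of replicate 2, against 45.8% of those in CDS (43.8 to 47.8%). Chosen in replicate 2, the shares were 60.7% for 3′ UTRs (56.4 to 65.0%) and 44.7% for CDS (42.8 to 46.7%). Eligible sequence that was not chosen by signal differed in the same direction. Of region-wide windows placed along it, 28.7% in 3′ UTRs and 17.9% in CDS overlapped a candidate of replicate 1. Whether the exon classes differed beyond this was not tested.

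The members lay towards the 3′ ends of genes more often than the sequence they could have fallen in. A 3′ UTR summit was found in 19.4% of members and in 17.1% of lower-ranked regions, while 3′ UTRs made up 10.9% of the eligible sequence. The same rule gave 18.2% in replicate 1 and 17.2% in replicate 2. The last 10% of the gene, by the span of its longest transcript, held 24.9% of members, 22.7% of lower-ranked regions and 16.7% of eligible sequence, with 23.8% in replicate 1 and 22.5% in replicate 2. Lower-ranked regions thus shared most of the excess. CDS summits alone had a median position of 0.56 of the gene in the members, in the lower-ranked regions and in the eligible sequence. That last 10% held 11.7% of CDS members, against 9.35% of eligible CDS. The quartiles of CDS position were 0.32 and 0.79 in members, against 0.34 and 0.77 in eligible CDS. The first 10% of the gene held 3.93% of members and 3.10% of eligible sequence, with 3.60% in replicate 1 and 3.17% in replicate 2. The 10% just before the middle of the gene held 7.27% of members and 10.1% of eligible sequence.

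**Figure D3:**
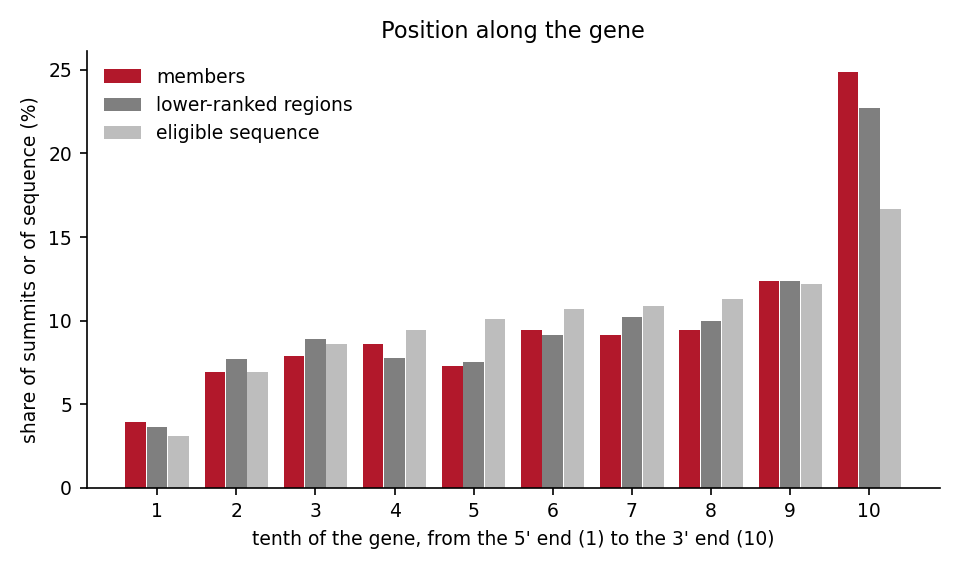
Share of summits or of eligible sequence (y axis, percent) in each 10% of the gene from its 5′ end to its 3′ end (x axis), for the members (red), the lower-ranked regions (dark grey) and the eligible sequence (light grey). The last 10% holds 24.9% of members, 22.7% of lower-ranked regions and 16.7% of eligible sequence.

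Genes of known function were found among the 3′ UTR members. The 3′ UTR of unc-15, for the muscle protein paramyosin, held a region with a signal of 80.3, at rank 1044 in replicate 1 and 10327 in replicate 2. In hlh-30, a bHLH regulator of autophagy and metabolism, the signal was 81.67, and in the homeobox gene ceh-30, which acts in the survival of male-specific neurons, it was 80.93. The cadherin gene cdh-8 had 83.24 and ost-1, for the basement membrane protein SPARC, had 69.92. The cdh-8 region stood at rank 459 in replicate 1 and 20590 in replicate 2, and that of ost-1 at 2142 and 16429. The ranks were 1038 and 11802 for hlh-30, and 2458 and 6817 for ceh-30. For 64.5% of 3′ UTR members the next gene downstream was on the opposite strand, so that both genes ended towards each other. The share was 62.1% for lower-ranked 3′ UTR regions and 59.4% for eligible 3′ UTR sequence. The median gap to that gene was 475 bp for members, 511 bp for lower-ranked regions and 808 bp for eligible sequence.

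Members were spread over all 6 chromosomes. X held 13.5% of members, 15.6% of lower-ranked regions and 16.6% of eligible sequence, with 13.6% in replicate 1 and 14.4% in replicate 2. V held 17.2% of members and 21.6% of eligible sequence. I held 20.3% of members and 16.3% of eligible sequence, and III held 16.7% and 13.4%. The shares of II (16.8% and 16.4%) and IV (15.4% and 15.8%) lay closer together. The part of base composition in these shares was not tested.

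Summit windows of members were richer in GC than the sequence around them. The windows of 50 bp to each side had 43.1 ± 9.29% GC (SD over 3000 members), against 41.7 ± 8.59% in lower-ranked regions and 40.2 ± 7.48% in eligible sequence read every 50 bp. Among CDS summits the means were 45.4% for members, 43.6% for lower-ranked regions and 41.2% for eligible CDS. A window with its centre 400 bp away in the same class of exon could be found for 1693 members. The rest of such a flank could reach beyond the exon, and flanks were not kept out of promoter windows or other candidate regions. In these 1693 members the summit windows had 43.6% and the flanks 41.6%, a difference of 1.98 points with an SD of 9.09 over members. The summit was higher in 943 members and lower in 674. The lower-ranked regions had a difference of 1.24 points. The shift was therefore small beside the spread between members, and it was 1.81 points with the regions of replicate 2 alone and 1.59 points with those of replicate 1 alone.

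The density of members rose steeply at the GC-rich end. Members per kb of eligible sequence numbered 0.0967 at 35 to 40% GC, 0.182 at 45 to 50%, 0.376 at 55 to 60% and 0.854 at 60% or more. The same rule gave 0.775 per kb in replicate 1 and 0.717 in replicate 2 at 60% or more. Below 30% GC the density was 0.134, above that at 35 to 40%. Lower-ranked regions had 0.0551 per kb at 35 to 40% and 0.167 at 60% or more. The GC-richest class held 118 members on 138.1 kb. Within the members signal followed GC weakly, with a Spearman correlation of 0.07 over 3000 regions that share the libraries. It was 0.12 over the CDS members and 0.09 over the 3′ UTR members. Mean GC was 46.5% in the 100 strongest members and 42.5% in ranks 2001 to 3000. The GC content of the reads and of the control library was not analysed here, and its part in these densities was not tested.

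**Figure D4:**
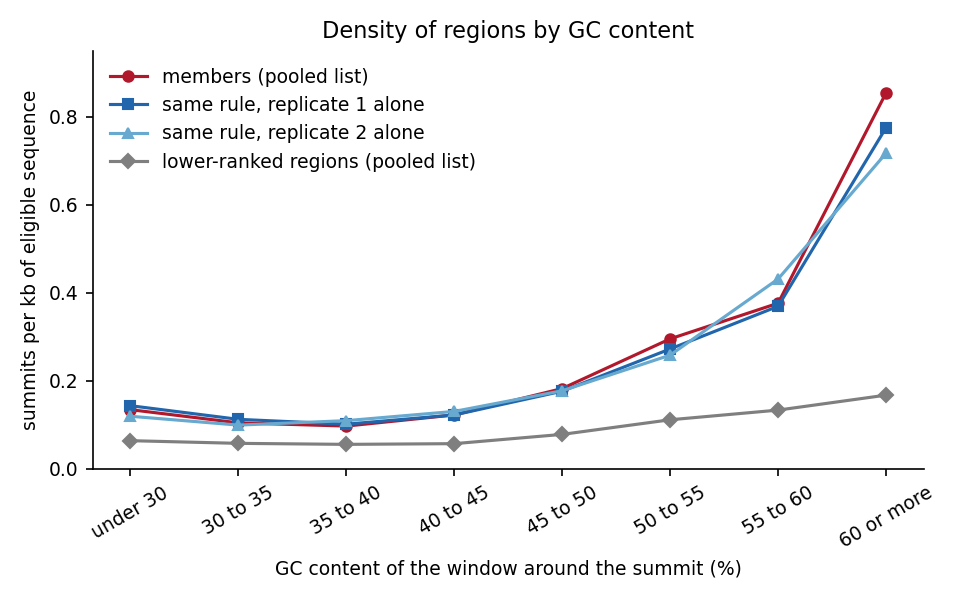
Summits per kb of eligible sequence (y axis) by the GC content of the window around them (x axis, percent), for the members (red circles), for the same rule in replicate 1 (squares) and in replicate 2 (triangles) alone, and for the lower-ranked regions (grey diamonds). The members reach 0.854 per kb at 60% GC or more, where replicate 1 has 0.775, replicate 2 has 0.717 and the lower-ranked regions have 0.167.

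GC-rich regions were found in the other replicate more often than regions at 35 to 40% GC, and so was GC-rich sequence as a whole. Of the 107 regions chosen in replicate 1 with 60% GC or more, 72 (67.3%) overlapped a candidate of replicate 2, against 239 (44.3%) of the 539 regions at 35 to 40%. Chosen in replicate 2 and looked up in replicate 1, the counts were 69 of 99 regions (69.7%) and 236 of 580 (40.7%). Of region-wide windows of eligible sequence, 46.5% of those with 60% GC or more and 16.1% of those at 35 to 40% overlapped a candidate of replicate 1. Whether the GC classes differed beyond this was not tested.

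The members fell in 2474 protein-coding genes, which is 13.8% of the 17863 genes with eligible sequence. A single member was found in 2050 genes, 2 members in 333 and 3 or more in 91. Member genes had a median of 1.45 kb of eligible sequence, against 0.850 kb over all genes. The highest count was 7 members in rimb-1, for a scaffold protein of the presynaptic zone, with signals of 41.0 to 68.7. On 4.05 kb this is 1.73 members per kb, beside 0.144 over all genes. The genes named here and below were picked for their counts, so a density above that of all genes is no result about them. dys-1, the worm dystrophin gene, held 6 members with signals of 46.0 to 81.7, at 0.674 per kb. F35A5.1 also held 6, at 0.863 per kb.

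Next by count were nas-30 and unc-89 with 5 members each. nas-30 codes for a secreted metalloprotease of the astacin family and unc-89 for the giant muscle protein obscurin. On 2.00 kb of eligible sequence nas-30 had 2.50 members per kb, while unc-89 had 0.204 on 24.6 kb. With 4 members each came ncl-1 (a regulator of nucleolar size), gei-4, cdh-12 (a cadherin), klp-20 (a kinesin-II motor subunit) and W05F2.4. Their densities per kb were 0.952 for ncl-1, 1.67 for gei-4, 0.500 for cdh-12, 2.00 for klp-20 and 0.678 for W05F2.4. All members of nas-30, ncl-1, gei-4 and cdh-12 were listed in both replicates, beside 58.2% of all members. The count was 5 of 6 in F35A5.1, 4 of 6 in dys-1, 4 of 7 in rimb-1, 2 of 5 in unc-89, 2 of 4 in klp-20 and 1 of 4 in W05F2.4. Members of 1 gene could be listed through the same replicate region. In ncl-1, 3 of the members overlapped the region at rank 446 of replicate 1, with a signal of 69.07.

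The cuticle collagens stood at the head of 17 gene lists by density. These genes code for the collagens that the epidermis secretes into the cuticle, and their coding sequence repeats triplets of glycine and other residues, often proline. Of 169 collagen genes with eligible sequence, 63 held 71 members, 70 of them in CDS. This is 0.532 members per kb, which is 3.69 times the 0.144 per kb of all genes. The same rule gave 0.509 per kb in replicate 1 and 0.547 in replicate 2. Chosen in replicate 1, 69.1% of 68 collagen regions (56.7 to 79.8%) overlapped a candidate of replicate 2, against 47.5% of regions in other genes (45.7 to 49.3%). In the other direction the shares were 72.6% of 73 (60.9 to 82.4%) and 46.9% (45.1 to 48.7%). Collagen sequence as a whole was also nearer to candidates. Region-wide windows along it overlapped a candidate of replicate 2 in 43.6% of cases and one of replicate 1 in 45.8%, against 18.9% and 18.9% in other genes. Whether collagen regions differed beyond this was not tested.

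Among single collagen genes, col-101 had a signal of 69.13 in replicate 1 and 36.74 in replicate 2. Values for col-80, at chrII:10707494-10707949 in exon 2 of 2, were 89.19 in the pooled list, 50.28 in replicate 1 and 36.09 in replicate 2. The cuticle collagen dpy-17, which is needed for normal body length, had 84.41 pooled, 45.59 in replicate 1 and 41.95 in replicate 2, at chrIII:5107775-5108230. These regions were listed in both replicates. Signals of different lists are not on a known common scale. The ranks in replicates 1 and 2 were 444 and 3339 for col-101, 1446 and 3597 for col-80, and 2261 and 1900 for dpy-17. The 3′ UTR region of col-99 was the 1 member of the list outside CDS, and col-99 codes for a transmembrane collagen that the list took by its name.

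Base composition moved with the collagen density. Collagen members averaged 57.6% GC and all members 43.1%. In windows of 60% GC or more the collagens had 0.858 members per kb and all other genes 0.853. At 55 to 60% the collagens had 0.588 and the other genes 0.360, and at 50 to 55% the values were 0.498 and 0.291. The collagens were thus level with other genes in the GC-richest windows, where they held 32 of 118 members, and above them in the next classes, on 17 and 12 collagen members.

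**Figure D5:**
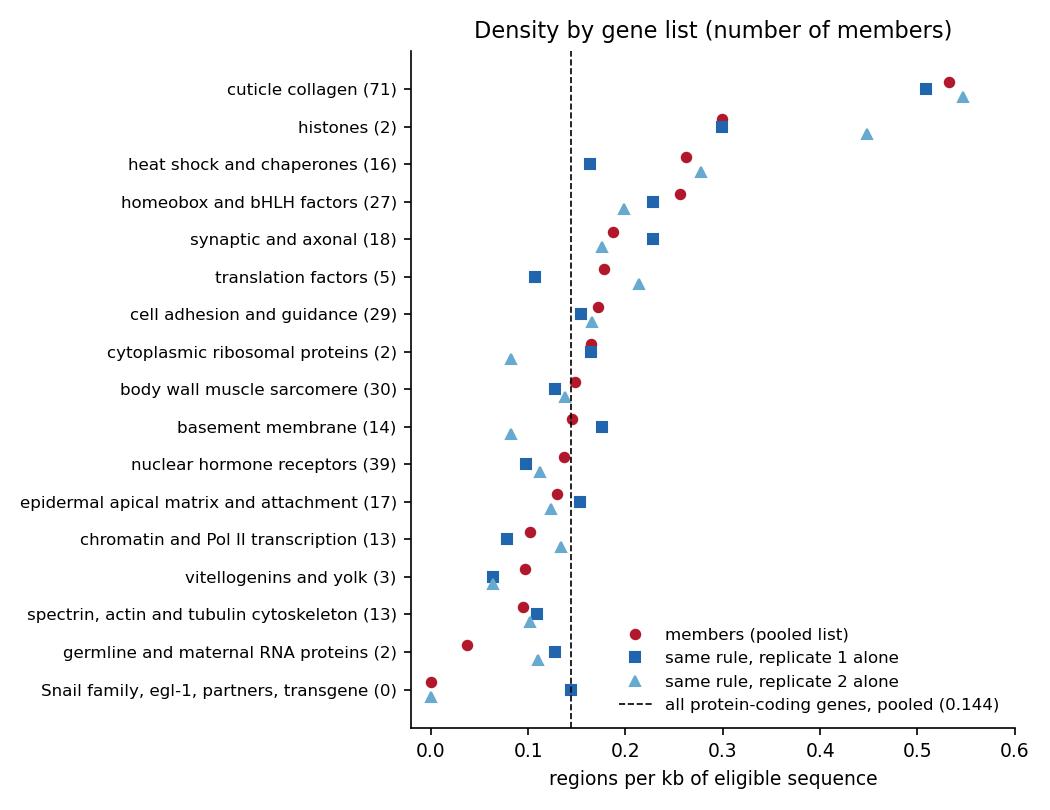
Regions per kb of eligible sequence (x axis) for 17 gene lists (y axis, with the number of members), for the members of the pooled list (red circles) and for the same rule in replicate 1 (squares) and in replicate 2 (triangles) alone. The cuticle collagens stand right of all other lists at 0.509 to 0.547 per kb, and the dashed line marks 0.144 per kb for all protein-coding genes.

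Other lists lay closer to the value of all genes or rested on few regions. The heat shock and chaperone list had 16 members at 0.262 per kb, with 0.164 in replicate 1 and 0.278 in replicate 2, and its strongest region was in the chaperonin subunit gene cct-5 (66.6). Homeobox and bHLH factors had 27 members at 0.256 per kb, with 0.228 in replicate 1 and 0.199 in replicate 2. They included ngn-1, a proneural bHLH gene with a signal of 75.56 in its last exon, and lim-7 with 69.68. Histones had 2 members at 0.299 per kb, both in his-24.

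Lists of the nervous system and of cell contacts were slightly above all genes. Synaptic and axonal genes had 18 members at 0.187 per kb (0.228 in replicate 1 and 0.176 in replicate 2), led by unc-33, for a CRMP protein of axon growth (79.65). Cell adhesion and guidance genes had 29 members at 0.172 per kb (0.154 and 0.166 in replicates 1 and 2), led by cdh-8. Translation factors had 5 members at 0.178 per kb, none of them listed in both replicates. Cytoplasmic ribosomal protein genes had 2 members, in rps-16 and rpl-3, at 0.165 per kb. Both were listed in replicate 1 alone.

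Structural lists were near the value of all genes or below it. Body wall muscle sarcomere genes had 30 members at 0.148 per kb (0.128 in replicate 1 and 0.138 in replicate 2), among them pat-4 (integrin-linked kinase, 75.24) and ketn-1 (kettin, 73.69). Basement membrane genes had 14 at 0.145, with 0.176 in replicate 1 and 0.0826 in replicate 2. Epidermal apical matrix and attachment genes had 17 at 0.130, with 0.153 in replicate 1 and 0.123 in replicate 2, led by the spectraplakin gene vab-10 (68.34) and by let-805 (66.68). The list of spectrin, actin and tubulin genes had 13 members at 0.0946 per kb, with the kinesin heavy chain gene unc-116 in the lead (68.43).

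Nuclear hormone receptors had 39 members at 0.137 per kb, led by nhr-119, and chromatin and Pol II genes had 13 at 0.102, led by the dosage compensation gene dpy-21 (76.95). Vitellogenin and yolk genes had 3 members at 0.0965 per kb, all in vit-6. Germline and maternal RNA genes had 2 members at 0.0367 per kb, in pgl-2 and nos-1. There the same rule gave 0.128 in replicate 1 and 0.110 in replicate 2, so the low pooled value was not seen in either replicate. The lists share some genes, and 2 to 5 members give a density that 1 region would change.

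The Snail family genes, and the other genes listed with them, held no member. On 13.9 kb of eligible sequence, the list of snai-1 itself, its relatives ces-1 and scrt-1, the cell death gene egl-1, hmr-1 (cadherin), hlh-2 (E protein) and unc-119, the marker gene of the strain, had 0 members and 2 lower-ranked regions. These were in unc-119, with a signal of 38.8 at rank 3027 of the eligible regions, and in hlh-2, with 35.3 at rank 3764. At 0.144 members per kb such a stretch would hold few members, so that 0 is no result about these genes.

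E-boxes were not called at the summits. In the 1693 members with a flank of the same exon class, CAGGTG or its reverse complement CACCTG was in 4.13% of summit windows and 3.13% of flank windows. The difference was 1.00 percentage points with a 95% interval of −0.24 to 2.24 points (exact McNemar test, Benjamini-Hochberg adjusted p = 0.451 over 10 E-box classes). Of the 10 classes 0 passed an adjusted p of 0.05. The lowest adjusted p was 0.322, and 1 class had an unadjusted p below 0.05. That class, CAGATG, was in 5.32% of summits and 7.03% of flanks. CAGGTG was in 3.73% of all 3000 member windows, in 4.15% of lower-ranked windows and in 2.87% of windows of eligible sequence. An excess of CAGGTG above 2.24 points is outside the interval, and smaller ones are not.

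Of all 2080 hexamers merged with their reverse complements, 4 (0.192%) passed as more frequent at member summits than at flanks, and 0 as less frequent. GGCCAC was in 4.43% of summit windows and 1.59% of flank windows (exact McNemar test, Benjamini-Hochberg adjusted p = 0.00151). By the same exact test, CACCAG was in 8.15% of summit and 4.49% of flank windows (adjusted p = 0.00941), ATTGGC in 6.38% and 3.37% (adjusted p = 0.0398), and CCAGGA in 8.51% and 5.32% (adjusted p = 0.0477). Without adjustment 221 hexamers had a p below 0.05, and 120 of them were higher at summits. In this test and that of the E-boxes the flanks were matched for exon class and not for GC. The summit windows had 1.98 points more GC than these flanks, and the part of GC in the hexamer differences was not tested. The lower-ranked regions gave 0 calls in 824 windows, with 106 hexamers below 0.05 without adjustment, but the difference between members and lower-ranked regions was not tested. GGCCAC was in 2.91% of lower-ranked summit windows and 1.21% of their flanks, the same direction as in the members. CACCAG was in 5.46% and 5.22%, ATTGGC in 5.22% and 5.58%, and CCAGGA in 6.19% and 6.31%.

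These calls were fragile. The same test gave 0 calls with the regions of replicate 1 alone (1757 windows) and 0 with those of replicate 2 alone (1769 windows). It also gave 0 with the 1000 strongest members and 0 with windows of 25 bp to each side. The 1000 strongest members had only 546 windows and the short windows held less sequence, so these 2 settings had less power. GGCCAC had an adjusted p of 0.531 in replicate 2 alone and 0.246 in replicate 1 alone, and over all alternatives run its adjusted p ranged between 6.50e-05 and 0.532. Members in the same gene are not independent, and with the strongest member of each gene GGCCAC kept an adjusted p of 0.00436. When collagen members were left out, GGCCAC alone was called (exact test, adjusted p = 0.00330). CCAGGA was in 76.6% of collagen summits with a flank and in 5.83% of other summits, and CACCAG in 56.2% and 6.26%. In the flanks of the other members each of these hexamers was in 3.93%. Shares in collagen flanks are not given here, so 76.6% and 56.2% do not compare summits with flanks. Other settings called other hexamers, among them TGCACA and ATTGAC with the strongest member of each gene and CTGGGC with the flank sides exchanged. In the test as reported, TGCACA was in 3.96% of summits and 6.73% of flanks and was not called. AGACAG, which led the hexamers less frequent at summits, was in 1.83% of summits and 4.08% of flanks, and the 5 of these with the lowest p had adjusted p-values of 0.0579 to 0.119.

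The strongest coding members that hold GGCCAC or its reverse complement GTGGCC in a stretch that is coding throughout are shown with that hexamer in capitals, as an example of the letters behind the strongest of these calls. All are on ce11, 5′ to 3′ on the strand of the gene.
pck-1: acccacgtgatGTGGCCcgcgtcgagtcca
W09G12.9: aatgtggaaatcGTGGCCgccaagcgagac
unc-33: ttgaagtcgttcGGCCACgtggcgccgaat
col-34: aggaccacctgGGCCACcaggagattctgg
The strongest collagen members with CCAGGA are shown the same way.
col-101: cagctggaccaCCAGGAccagctggaccag
col-80: gcaCCAGGAaacCCAGGAccacaaggacca
dpy-17: ccacaaggaccaCCAGGAtcccaaggaaag
col-150: aacccgggcaaCCAGGAaatCCAGGAaaag
col-77: cagccggaccaCCAGGAccagcaggaaacg
In all 5 the first CCAGGA began at position 1 of a codon, so that it was read as a proline (CCA) and a glycine (GGA) codon. GGCCAC or GTGGCC began at codon position 1 in pck-1 and W09G12.9 and at position 2 in unc-33 and col-34. GGCCAC was in 3.87% of all member windows, in 2.77% of lower-ranked windows and in 1.73% of windows of eligible sequence, and CCAGGA in 7.13%, 5.39% and 4.33%. A match describes these letters and is not a binding site.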

How the data were processed

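Per the labels, both samples are biological replicates of 1 late-embryo group from strain OP698, and replicate numbers come from the labels. The authors deposited narrowPeak lists per replicate, for both replicates pooled and after an IDR filter. Per the deposited manifests, each used an alignment and a control, and the ce11 lists were used here. The signal in these lists, and the −log10 q-value beside it, are the authors' values as deposited. No label or file names the caller, its version or the IDR threshold. The files hold no read counts, so depth is unknown.

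Summits were placed on the Ensembl release 115 annotation of WBcel235, with the RefSeq sequence of that assembly, using Python 3.11.15, numpy 2.4.6, pandas 2.3.3 and scipy 1.17.1. Printed coordinates count from 1. The gene of a summit in several genes (20 members) was the first by name in position counts, and 33 summits in both CDS and 3′ UTR annotations counted as CDS. Signal of a replicate is that of its strongest overlapping candidate. Hexamers were tested in windows of 50 bp to each side of the summit with the exact McNemar test, two-sided, with Benjamini-Hochberg adjustment. Each was set against 1 window whose centre lay 400 bp away in the same exon class. The test was checked on simulated windows of random letters, with the same composition at summits and flanks. That check had no GC difference, no repeats and no shared genes, so it cannot show how the test behaves under these. Intervals of shares are exact (Clopper-Pearson) 95% intervals, and that of the E-box difference is a paired normal interval.

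Named genes were those of the 20 strongest members, the 10 genes with most members, up to 4 genes per list, the 3 regions on each side of the threshold, and the 7 genes of the Snail, partner and transgene list. Genes shown for a hexamer were the strongest with it, picked after its test. The members, the gene lists and the tests were chosen with earlier results of these data known. Densities per kb, GC classes, the last 10% of genes, downstream genes and the weight given to collagens were chosen after the values were seen, and classes of genes by the letters of their symbols were looked at without being reported. With 1 group, no comparison between conditions was possible.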

Additional observations from a re-analysis of the deposited data

How the results depend on the processing

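The share of the 3000 regions of replicate 1 that overlapped the 3000 of replicate 2, 26.5% as reported, was 16.6% with the 1000 strongest, 29.8% with promoter windows of 2000 bp upstream to 500 bp downstream, 23.1% with the strongest member of each gene, 22.1% where 50% of both regions had to overlap and 16.2% for summits within 100 bp. It could not be given without a replicate. Leaving out 1 replicate gave a CDS share of 81.8 to 82.8%, against 80.6%, and a share in the last 10% of the gene of 22.5 to 23.8%, against 24.9%. It gave a GC difference of 1.59 to 1.81 points, against 1.98, and 0 hexamer calls in either case, against 4. At 60% GC or more it gave 0.717 to 0.775 members per kb, against 0.854. With the 1000 strongest members the CDS share was 77.5%, the last 10% of the gene 27.5%, the GC difference 2.34 points, the hexamer calls 0, the genes 910, the collagen density 0.285 per kb and the density at 60% GC or more 0.442 per kb. The counts and densities of that setting are lower because it has fewer members, and the collagens then had 5.93 times the density of all genes. With the wider promoter windows the values were 78.7%, 27.1%, 1.79 points, 2 hexamers, 0.843 collagen members per kb and 1.06 members per kb at 60% GC or more, on less eligible sequence. With the strongest member of each gene the densities were 0.472 and 0.652 per kb. Hexamer calls in either direction numbered 2 with unique 36-mers, 0 with windows of 25 bp to each side and 11 with windows of 100 bp to each side. They numbered 8 with flanks 600 bp away, 2 with flank sides exchanged and 1 without collagens. The 4 calls as reported were all higher at summits, while the counts of the other settings are not split by direction. The GC difference was 1.26 points with windows of 100 bp to each side and 1.49 points with flanks 600 bp away. The cause of these shifts was not tested. E-box calls were 0 in all settings run. The alternatives for the last 10% of the gene, the densities and the collagens left out were chosen after seeing the data. No paired analysis was possible because there is 1 group. Depth is unknown, so differences smaller than those between the replicates cannot be judged.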
